A study of Mus musculus with 4 samples.

Results

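The 8 genes described here are the adult haemoglobin genes Hba-a1, Hba-a2, Hbb-bs and Hbb-bt and the heme synthesis enzymes Alas1, Alas2, Alad and Fech. They were taken by symbol from the 55487 genes of the count tables. The set was chosen on values measured in these same libraries, namely the haemoglobin found in each library and the level of Alad in endothelial cells of the old EC-K4KO-labelled library, so the comparisons below describe these genes and are not independent evidence about them. The study asked what loss of the transcription factor KLF4 from endothelium does in the ageing brain. EC-K4KO mice carried floxed Klf4 alleles and a tamoxifen-inducible Cre driven by the promoter of Cdh5, the endothelial VE-cadherin gene, and WT Cre littermates carried the Cre alone, on a C57BL/6J background. According to the study's text both genotypes were handled alike with tamoxifen, whereas the labels name no drug treatment. Brain endothelial cells from mice of both sexes, with ages given in the labels as young or old, were enriched by FACS or by endothelial markers before droplet sequencing. How many mice, and of which sex, stand behind each library, and whether blood was flushed from the brains used for sequencing, is not given in the sources used here.

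The 4 groups are WT Cre and EC-K4KO, each young and old, and each is 1 library, so no difference has a replicate check, no test was run and no p-value is given. Intervals are exact 95% intervals and cover counting error only. The libraries held 5324 to 8358 barcodes and 30655769 to 88812581 UMIs, and 7 to 42 barcode sequences were shared between any pair of libraries. Klf4, the targeted gene, went against the labels in endothelial-like cells: it stood at 1661 UMIs per 1000000 UMIs (CPM) in young WT Cre, 3216 in the young EC-K4KO-labelled library, 2047 in old WT Cre and 3229 in the old EC-K4KO-labelled library. The genotype names are therefore given as labels throughout. A count at the 3′ end can lie outside the deleted part, which the sources used here do not place, so Klf4 may check nothing about the deletion.

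Haemoglobin carries oxygen as a complex of alpha chains, made from Hba-a1 and Hba-a2, and beta chains, made from Hbb-bs and Hbb-bt, each holding a heme. Heme is made in a chain of steps that starts in mitochondria with aminolevulinic acid synthase, encoded by Alas1 in most tissues and by Alas2 in the red cell lineage. Alad then condenses aminolevulinic acid into porphobilinogen in the cytosol, and Fech closes the pathway in mitochondria by placing iron into protoporphyrin. Immature red cells lose their nucleus but keep globin mRNA, so blood left in a brain preparation, or free RNA from lysed red cells, brings haemoglobin UMIs into a library. Alpha globin is also known as a protein of the endothelium of small arteries, where it affects nitric oxide signalling to smooth muscle.

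Both globin pairs are tandem copies. In the GRCm38 annotation (GENCODE M21), Hba-a1 lies at chr11:32283511-32284465 and Hba-a2 at chr11:32296489-32297298, both on the forward strand. Hbb-bs lies at chr7:103826534-103828096 and Hbb-bt at chr7:103812524-103813996, both on the reverse strand. Of the 50-base windows of the Hba-a2 transcript, 86.9% occur unchanged in that of Hba-a1, and 58.3% of those of Hbb-bt occur in that of Hbb-bs, so the split of UMIs within each pair is uncertain and the sums of each pair are used where possible. Alas1 lies at chr9:106233455-106248654 and Alad at chr4:62509169-62519918, both on the reverse strand, and Alas2 lies at chrX:150547375-150570638 on the forward strand.

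The promoters of the genes that carried most of the pattern below are printed so that red cell genes and Alad can be read side by side. Each is the RefSeq GRCm38.p6 window from 250 bases before to 50 bases after a transcript start, 5′ to 3′, with capitals on matches to AGATAA, to its form TGATAA that opens with another base, to the form AGATAG that ends in another base and to TGATAG, which has both changes (GATA-type motifs), and to CCNCNCCC (a CACCC-type motif), searched on both strands. The windows are chr11:32283422-32283721 (forward) for Hba-a1, chr7:103827879-103828178 (reverse) for Hbb-bs, chrX:150547167-150547466 (forward) for Alas2 and chr4:62519860-62520159 (reverse) for 1 of the 2 listed starts of Alad.
Hba-a1: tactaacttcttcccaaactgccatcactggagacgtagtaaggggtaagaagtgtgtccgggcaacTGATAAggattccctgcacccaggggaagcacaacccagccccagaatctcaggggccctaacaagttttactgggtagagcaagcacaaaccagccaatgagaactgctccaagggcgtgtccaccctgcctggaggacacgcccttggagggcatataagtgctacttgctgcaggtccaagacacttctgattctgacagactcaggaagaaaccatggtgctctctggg
Hbb-bs: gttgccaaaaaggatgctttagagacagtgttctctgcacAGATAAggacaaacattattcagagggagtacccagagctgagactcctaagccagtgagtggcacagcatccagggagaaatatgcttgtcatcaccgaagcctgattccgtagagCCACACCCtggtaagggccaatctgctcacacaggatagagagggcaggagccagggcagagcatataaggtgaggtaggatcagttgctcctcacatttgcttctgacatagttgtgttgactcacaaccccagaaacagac
Alas2: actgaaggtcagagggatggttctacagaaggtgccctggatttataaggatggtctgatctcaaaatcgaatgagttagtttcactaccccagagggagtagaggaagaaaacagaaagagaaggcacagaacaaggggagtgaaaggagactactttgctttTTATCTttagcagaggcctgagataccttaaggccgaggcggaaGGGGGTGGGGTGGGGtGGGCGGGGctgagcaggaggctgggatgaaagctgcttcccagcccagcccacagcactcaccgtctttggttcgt
Alad: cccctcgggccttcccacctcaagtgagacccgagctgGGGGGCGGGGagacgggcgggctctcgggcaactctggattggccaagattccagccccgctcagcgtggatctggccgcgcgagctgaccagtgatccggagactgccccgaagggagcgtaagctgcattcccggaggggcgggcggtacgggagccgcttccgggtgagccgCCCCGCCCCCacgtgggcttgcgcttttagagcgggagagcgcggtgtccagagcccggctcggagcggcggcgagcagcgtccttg
Hba-a1, Hbb-bs and Alas2 each held 1 GATA-type match, while Hbb-bt, also a red cell gene, and both windows of Alad and of Alas1 held 0. Of 32851 promoter windows of the same length, 29.8% held a GATA-type match, 49.5% a CACCC-type match and 10.2% both. The window of Hba-a2 shares an unbroken run of 297 bases with that of Hba-a1 and so holds the same GATA-type match. These matches are a description of the letters only.

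Haemoglobin made up 1.32% of all UMIs in young WT Cre (615799 UMIs), 2.14% in the young EC-K4KO-labelled library (1902798 UMIs), 1.07% in old WT Cre (556892 UMIs) and 1.54% in the old EC-K4KO-labelled library (472945 UMIs). At both ages the EC-K4KO-labelled library held the larger share, and the counting intervals of the 4 shares did not overlap. Nearly all of it lay in few barcodes. Barcodes with at least 1% of their UMIs from haemoglobin, called haemoglobin-rich below, numbered 151, 459, 195 and 178 in that order of libraries, which is 2.84%, 5.49%, 2.67% and 3.27% of barcodes. They held 98.1%, 97.9%, 98.4% and 98.5% of the haemoglobin UMIs. Without them haemoglobin was 0.0270%, 0.0495%, 0.0173% and 0.0240% of UMIs.

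**Figure D1:**
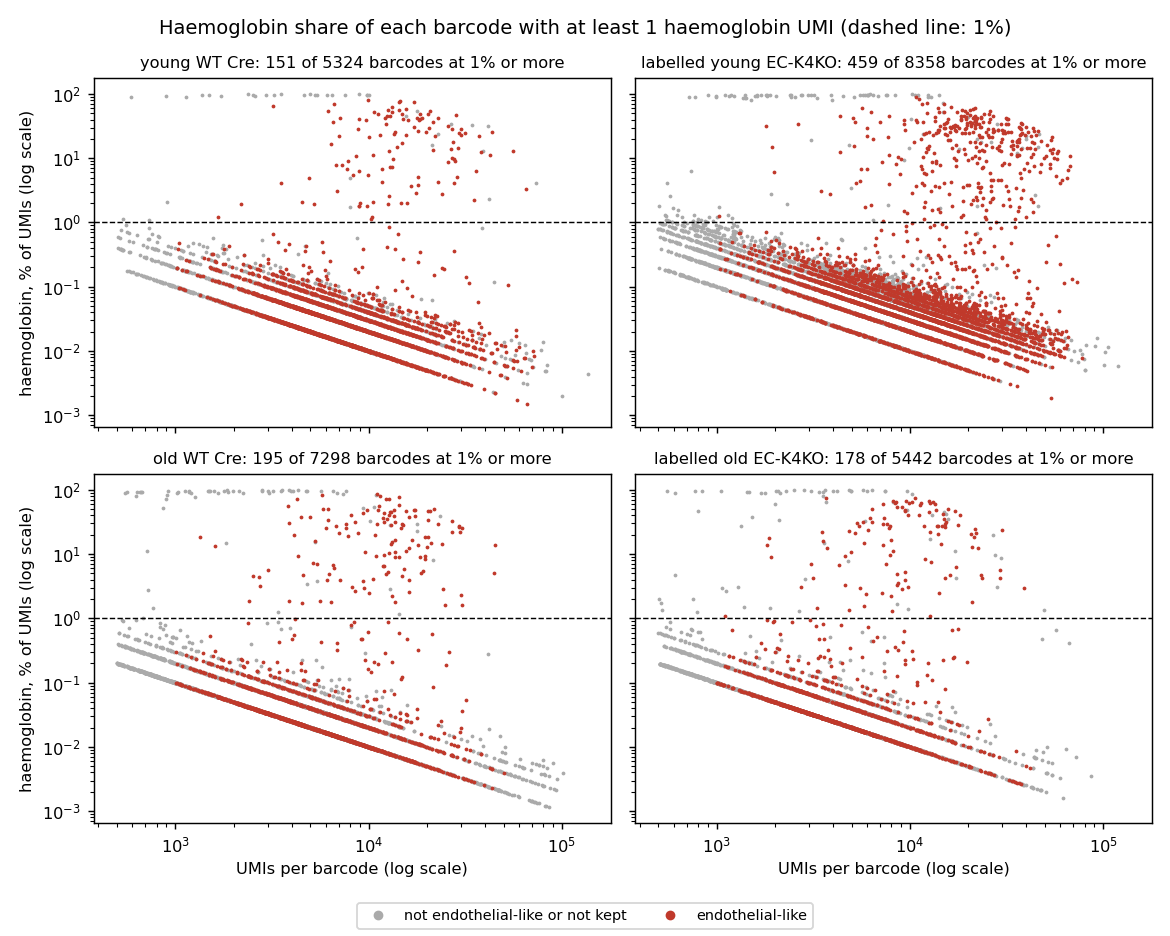
Each point is a barcode with at least 1 haemoglobin UMI, with its UMIs on the x axis and the percentage of them from Hba-a1, Hba-a2, Hbb-bs and Hbb-bt on the y axis, both on log scales, in 1 panel per library. Most barcodes lie on the diagonal lines of 1 to a few UMIs, and 151, 459, 195 and 178 barcodes lie above the dashed 1% line, where endothelial-like barcodes (red) are frequent at high UMI totals.

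The haemoglobin-rich barcodes were of several kinds. In 38, 78, 63 and 53 of them haemoglobin was at least 50% of UMIs. Of the rich barcodes, 27, 92, 52 and 46 did not pass the cell filter, which asked for 500 genes, 1000 UMIs and no more than 10% of UMIs from mitochondria. Most of those that passed were endothelial-like by their marker genes, 113 of 124, 340 of 367, 128 of 143 and 108 of 132. Another 9, 20, 11 and 9 carried markers of 2 lineages and were left out of every class.

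Endothelial-like cells were haemoglobin-rich more often than smooth muscle-like and microglia-like cells. The share was 3.88% (3.21 to 4.65) of the 2911 cells of this kind in young WT Cre, 8.98% (8.09 to 9.94) of 3785 in the young EC-K4KO-labelled library, 5.54% (4.64 to 6.55) of 2311 for old WT Cre and 5.33% (4.40 to 6.40) of 2025 in the old EC-K4KO-labelled library. Smooth muscle-like cells gave 0 of 456, 2 of 1333, 0 of 536 and 0 of 284, and the highest upper limit of these shares was 1.29%. Microglia-like cells gave 0 of 341, 1 of 601, 3 of 1304 and 5 of 761, with upper limits of at most 1.53%. In each library the endothelial-like interval lay above those of smooth muscle-like and microglia-like cells. Between the libraries, the young pair differed beyond counting error and the old pair did not. The libraries were enriched for endothelium before loading, which can set these shares, and the part of that enrichment in them was not tested.

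Rich endothelial-like barcodes also held more other RNA than the remaining endothelial-like cells. Leaving haemoglobin out, their median was 10322 UMIs in young WT Cre, 16085 in the young EC-K4KO-labelled library, 8568 in old WT Cre and 6067 in the old EC-K4KO-labelled library, against 6382, 10011, 4716 and 3774 in the other endothelial-like cells. In CPM of the UMIs that are not haemoglobin, the summed level of the 10 endothelial markers was 20194 against 19955, 19526 against 19634, 18552 against 18313 and 17273 against 17384, so rich and other cells stood at similar levels. The 9 microglial markers summed to 54.8 to 81.7 in rich and 63.6 to 70.0 in other endothelial-like cells over the 4 libraries, with no common direction. The 7 astrocyte markers were higher in rich cells in each library, at 121 against 113, 147 against 112, 117 against 105 and 122 against 101, and 61.1%, 67.6%, 42.2% and 34.3% of rich cells had a UMI of them, against 46.8%, 51.6%, 31.1% and 28.7%. The 8 smooth muscle markers were lower in rich cells in each library, at 71.1 to 155 against 90.0 to 181, and the 6 pericyte markers, at 5.36 to 98.5 against 21.5 to 62.0, had no common direction. The shares of cells with a UMI are before thinning, and rich cells were deeper. For the smooth muscle markers they were 47.8%, 77.4%, 27.3% and 33.3% in rich and 39.5%, 69.9%, 23.6% and 26.7% in other cells. Microglial markers gave 44.2%, 59.7%, 43.8% and 32.4% against 39.7%, 46.0%, 32.1% and 26.7%. Pericyte markers gave 7.08% against 11.2% in young WT Cre and higher shares in rich cells elsewhere. The summed level of the 12 erythroid markers was 8.95 to 28.8 in rich and 0.458 to 0.787 in other endothelial-like cells, lowest among rich cells in the old EC-K4KO-labelled library, and 17.7%, 20.6%, 14.1% and 4.63% of rich cells had a UMI of any of them. The part of red cells that share a droplet or stick to a cell, or of other cells' RNA, in these barcodes was not tested.

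Alas2, the red cell isoform of the first enzyme of the pathway, went with the haemoglobin. In CPM of UMIs that are not haemoglobin it stood at 551, 450, 564 and 601 in rich endothelial-like cells of young WT Cre, the young EC-K4KO-labelled library, old WT Cre and the old EC-K4KO-labelled library. In the other endothelial-like cells it stood at 0.305, 0.793, 0.0656 and 0.371, from 8, 36, 1 and 4 UMIs. Per 10000 haemoglobin UMIs there were 18.9, 19.8, 18.8 and 18.2 Alas2 UMIs in rich endothelial-like cells, a ratio that varied little between libraries. In smooth muscle-like, pericyte-like, microglia-like and astrocyte-like cells Alas2 was at most 2.86 CPM in any library.

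Among genes listed as kept by reticulocytes, those over 1.5-fold higher in rich than in other endothelial-like cells in all 4 libraries included Bpgm, which makes the oxygen-affinity regulator bisphosphoglycerate, Isg20, Ube2l6, Mkrn1, Slc25a37 and Tent5c. Bpgm stood at 344, 226, 227 and 253 CPM of non-haemoglobin UMIs in rich cells and at 22.0, 24.5, 20.3 and 20.9 in the others. Bnip3l, Car2 and Cat, which the other endothelial-like cells also held at 48.0 or more, were not over 1.5-fold higher in any library. Among mitochondrial heme and iron transport genes, Slc25a37 (mitoferrin 1, which carries iron into mitochondria) and Slc25a39 passed that fold in all 4 libraries, and Fech did so too, at 130, 83.5, 102 and 87.2 against 23.5, 24.9, 19.2 and 19.6. Alad stood at 45.6, 73.7, 32.4 and 62.6 in rich and 42.3, 81.0, 35.8 and 69.4 in other endothelial-like cells, and Alas1 was also under 1.5-fold apart in every library. The intermediate enzymes Uros, Cpox and Ppox were not over 1.5-fold higher in rich cells in any library, and Urod was in 1. Because the cells were sorted by their haemoglobin, these values describe what came along with it.

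**Figure D2:**
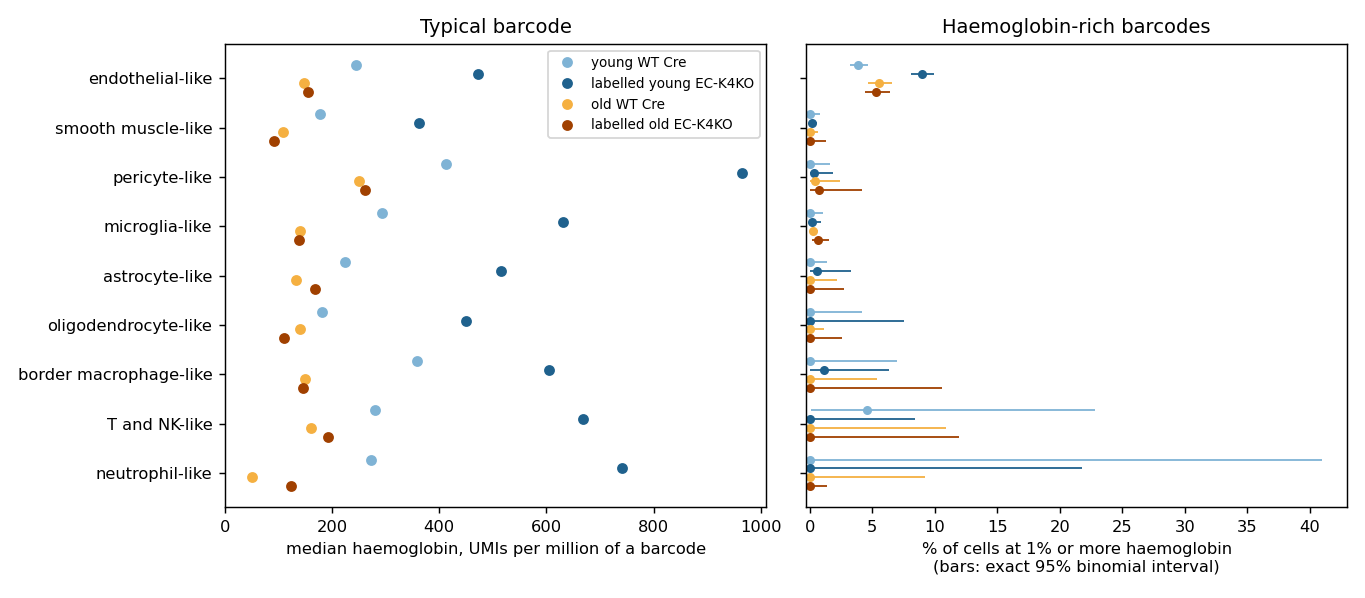
Left: median haemoglobin level of a barcode in CPM, by cell class (rows) and library (colours). Right: percentage of the cells of each class with at least 1% haemoglobin, with exact 95% binomial intervals. Of the 9 classes drawn, pericyte-like cells have the highest median in each library, while the rich share is 3.88% to 8.98% in endothelial-like cells and at most 1.16% in the other classes drawn, except for 1 of 22 T and NK-like cells of young WT Cre. Erythroid-like cells, rich in 8 of 12 cells of the old EC-K4KO-labelled library, and the remaining small classes are not drawn.

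Outside the rich barcodes haemoglobin was present at a low level in every class. Over all cells of a class, rich ones included, the median level of a barcode was 245 CPM in endothelial-like and 293 CPM in microglia-like cells of young WT Cre, and 472 and 632 CPM in those of the young EC-K4KO-labelled library. In old WT Cre the medians were 147 and 141 CPM, and in the old EC-K4KO-labelled library 155 and 138 CPM. After each cell was thinned to 1000 UMIs, 27.1% (25.5 to 28.8) of endothelial-like cells under 1% haemoglobin in young WT Cre had a haemoglobin UMI, against 25.5% (23.4 to 27.8) of other named classes, which should lack the genes. The same shares were 40.2% and 42.0% in the young EC-K4KO-labelled library, 21.5% and 15.5% in old WT Cre and 22.4% and 18.2% in the old EC-K4KO-labelled library. Before thinning the endothelial-like shares were 83.1%, 97.9%, 61.0% and 57.0%, at median depths of 6384, 10011, 4716 and 3774 UMIs, and those of the other classes 82.5%, 96.5%, 57.3% and 57.1%, at 7131, 7829, 5473 and 4899 UMIs. In the young libraries these endothelial-like shares were not distinguishable from the background in the other classes. The share was highest in the young EC-K4KO-labelled library in both sets of cells. In both old libraries the endothelial-like interval lay above that of the pooled other classes, but not above that of each class. Over all cells of a class, pericyte-like cells had 27.0% in old WT Cre and 28.5% in the old EC-K4KO-labelled library. Astrocyte-like cells had 21.8% and 20.9%, microglia-like cells 16.0% and 18.7%, and smooth muscle-like cells 14.9% and 16.2%. How far the mix of classes sets the pooled share was not tested.

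The division between alpha and beta chains differed among these sources. Hba-a1 and Hba-a2 together gave 42.9%, 43.2%, 38.2% and 35.3% of haemoglobin UMIs in the rich barcodes of young WT Cre, the young EC-K4KO-labelled library, old WT Cre and the old EC-K4KO-labelled library, so both young libraries stood above both old ones. Over single barcodes with at least 10% haemoglobin the alpha share ranged from 29.2% to 68.7% with a median of 43.0% among 100 barcodes of young WT Cre, and from 18.8% to 67.8% with a median of 43.2% among 296 of the young EC-K4KO-labelled library. Among 138 barcodes of old WT Cre it ranged from 1.60% to 57.0% with a median of 38.5%, and among 119 of the old EC-K4KO-labelled library from 18.4% to 58.2% with a median of 36.0%. The ranges overlapped widely, with lower and upper quartiles of 41.2% and 45.5% in young WT Cre and 36.1% and 41.9% in old WT Cre. The quartiles were 40.8% and 45.8% in the young and 32.7% and 39.7% in the old EC-K4KO-labelled library, so there the ranges between quartiles did not overlap. Within the alpha pair, Hba-a1 took 49.6%, 50.5%, 47.4% and 42.7%.

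Under 1% haemoglobin, endothelial-like cells held more alpha chain than other classes. The alpha share was 41.5% (40.3 to 42.6), 43.5% (42.8 to 44.1), 43.0% (41.4 to 44.7) and 41.6% (39.8 to 43.4) in endothelial-like cells and 35.0% (33.4 to 36.7), 36.4% (35.5 to 37.3), 33.3% (31.7 to 35.0) and 30.1% (28.1 to 32.2) in the other named classes. The intervals of the 2 sets of cells did not overlap in any of the 4 libraries. The difference varied with the number of haemoglobin UMIs of a barcode. Among barcodes with 1 to 5 such UMIs the alpha share of endothelial-like cells was 34.8%, 35.6%, 32.7% and 30.6%, beside 34.4%, 36.1%, 32.4% and 29.5% in the other classes, with overlapping intervals in each library. Among those with 6 to 24 it was 44.2%, 36.6%, 56.7% and 60.5%, beside 39.95%, 36.9%, 43.4% and 34.5% in the other classes, and the intervals overlapped in young WT Cre, the young EC-K4KO-labelled library and old WT Cre. These values rest on 120, 1072, 33 and 41 endothelial-like barcodes and on 55, 609, 14 and 10 of the other classes. The groups are set by UMI counts, so depth and background level bear on which barcodes they hold. Among those with 25 or more, still under 1% of their UMIs, it was 76.0% of 885 UMIs, 63.8% of 5764, 59.0% of 996 and 52.1% of 824 in endothelial-like cells, which rest on 16, 71, 16 and 19 barcodes. In the other classes 2, 0, 3 and 2 barcodes reached that number.

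**Figure D3:**
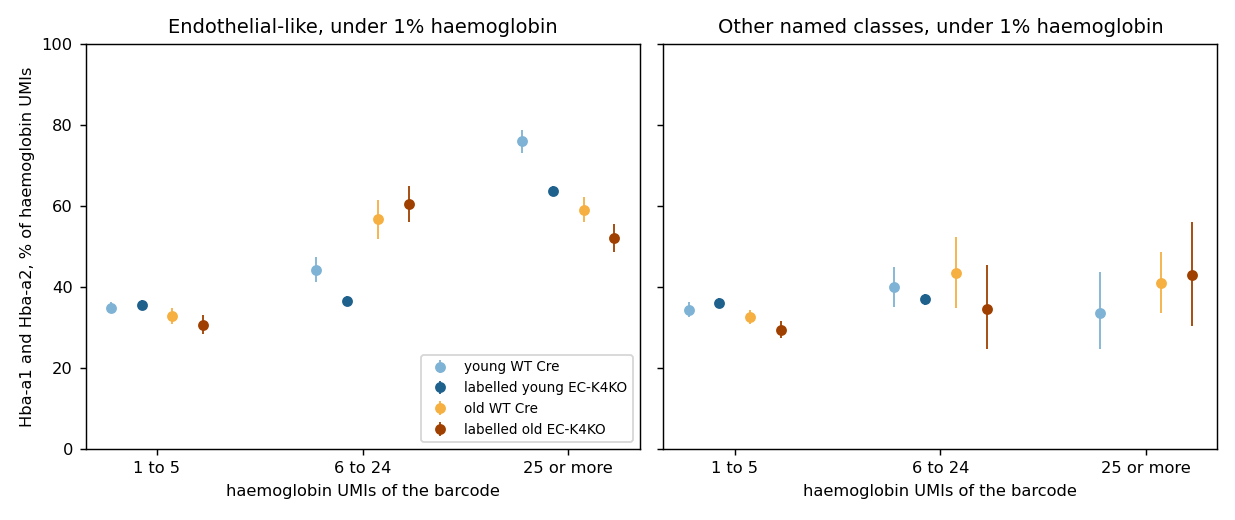
Percentage of haemoglobin UMIs from Hba-a1 and Hba-a2 (y axis) in barcodes under 1% haemoglobin, grouped by their number of haemoglobin UMIs (x axis), for endothelial-like cells (left) and other named classes (right), with exact 95% binomial intervals over UMIs. In endothelial-like barcodes the alpha share goes from 30.6% to 35.6% at 1 to 5 UMIs to 52.1% to 76.0% at 25 or more, and no value is drawn for the other classes of the young EC-K4KO-labelled library at 25 or more because no barcode reached it.

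Some endothelial-like barcodes held almost only alpha chain. By a rule set after the values were seen, with at least 8 alpha UMIs that were at least 80% of the haemoglobin UMIs of a barcode under 1% haemoglobin, there were 9 such endothelial-like barcodes in young WT Cre (0.322% of 2798), 38 in the young EC-K4KO-labelled library (1.10% of 3445), 10 in old WT Cre (0.458% of 2183) and 15 in the old EC-K4KO-labelled library (0.782% of 1917). The other named classes held 0 of 1558, 1 of 2746, 1 of 3158 and 0 of 2074. Their median alpha UMIs per endothelial-like barcode were 44, 32.5, 20.5 and 16, and the highest beta count was 22. The rule asks for a number of UMIs and so depends on depth. The alpha-led endothelial-like barcodes had medians of 24462, 17693, 10124 and 8329 UMIs. All endothelial-like cells under 1% haemoglobin had 6384, 10011, 4716 and 3774, and the shares were not compared at equal depth. Of the 72 barcodes, 54 lay in the capillary range of endothelial markers, 7 in the arterial range, 0 in the venous range and 11 between ranges, and 1 had an Alas2 UMI. Of all 10343 endothelial-like cells under 1% haemoglobin 8002 (77.4%) were in the capillary, 810 (7.83%) in the arterial and 306 (2.96%) in the venous range. The libraries differed in the arterial range, which held 1 of 9 and 0 of 38 of these barcodes in the young WT Cre and EC-K4KO-labelled libraries, beside 6.36% and 5.43% of all such cells there, and 2 of 10 and 4 of 15 in the old ones, beside 10.2% and 11.6%. UMIs of 1 barcode share their source, so the intervals above are too narrow for a statement about cells.

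Red cell precursors were rare. Barcodes with at least 3 of the 12 erythroid markers that are not members numbered 9 in young WT Cre, 18 in the young EC-K4KO-labelled library, 4 in old WT Cre and 17 in the old EC-K4KO-labelled library, which is 0.169%, 0.215%, 0.0548% and 0.312% of barcodes. With at least 8 markers there were 1, 0, 0 and 14, so the fullest erythroid profiles lay almost wholly in the old EC-K4KO-labelled library. That library held 12 erythroid-like cells, beside 1, 1 and 0 in the others, with a median of 28980 UMIs and haemoglobin from 0.00939% to 48.1% of UMIs. In the sum of these 12 cells Alad stood at 916 CPM (381 UMIs), against 67.1 CPM in endothelial-like cells of the same library, and the later enzymes Cpox and Urod stood at 760 and 301 CPM against 17.7 and 25.1 CPM. Fech stood at 320 CPM and Alas1 at 12.0 CPM. Alas2 stood at 118 CPM from 49 UMIs. In the 4 of these cells under 1% haemoglobin, Hbb-bt was 46.2% of beta chain UMIs. Over all 12 cells Hbb-bt had 4766 UMIs beside 12735 of Hbb-bs, so its share was lower there. The embryonic globins Hbb-bh1 and Hba-x had 0 UMIs in the 12 cells and Hbb-y had 1.

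Alas1, the isoform used outside red cells, was highest in endothelial-like cells among the 5 classes with at least 100 cells in every library. In endothelial-like cells it stood at 317 CPM (310 to 323) in young WT Cre, 301 (296 to 305) in the young EC-K4KO-labelled library, 394 (385 to 404) for old WT Cre and 388 (377 to 400) for the old EC-K4KO-labelled library. Both old libraries stood above both young ones, by 0.32 log2 (0.27 to 0.36) in WT Cre and 0.37 log2 (0.32 to 0.42) in the EC-K4KO-labelled libraries, while the median of all tested genes was -0.20 and -0.14 log2 in these 2 age comparisons. Neither age difference reached 1.5-fold. Within an age the labelled pairs differed by -0.08 log2 (-0.11 to -0.04) and -0.02 log2 (-0.08 to 0.03). The level in smooth muscle-like, pericyte-like, astrocyte-like and oligodendrocyte-like cells was between 14.4 and 42.9 CPM, and in microglia-like cells between 58.6 and 94.8 CPM. Along the vessel tree the old venous range was highest, at 537 CPM for WT Cre and 486 CPM for the EC-K4KO-labelled library, against 275 and 231 CPM in the young venous range, where 37 and 94 cells were behind the values.

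Fech was low and spread over all classes. In endothelial-like cells it stood at 28.8 CPM (26.8 to 30.8), 31.5 (30.0 to 33.0), 25.1 (22.8 to 27.6) and 24.1 (21.4 to 27.1), in the order of libraries used above, and without the rich cells at 23.5, 24.9, 19.2 and 19.6. Oligodendrocyte-like cells stood highest among classes of the brain with at least 40 cells in each library, at 95.3, 60.0, 79.4 and 90.8 CPM, beside pericyte-like cells at 55.2, 50.6, 47.2 and 32.5 CPM, whose intervals overlapped those of astrocyte-like cells in every library. Microglia-like cells stood at 32.7 and 27.6 CPM in the young libraries and 18.2 and 19.0 CPM in the old ones, and the intervals of young WT Cre and old WT Cre did not overlap.

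**Figure D4:**
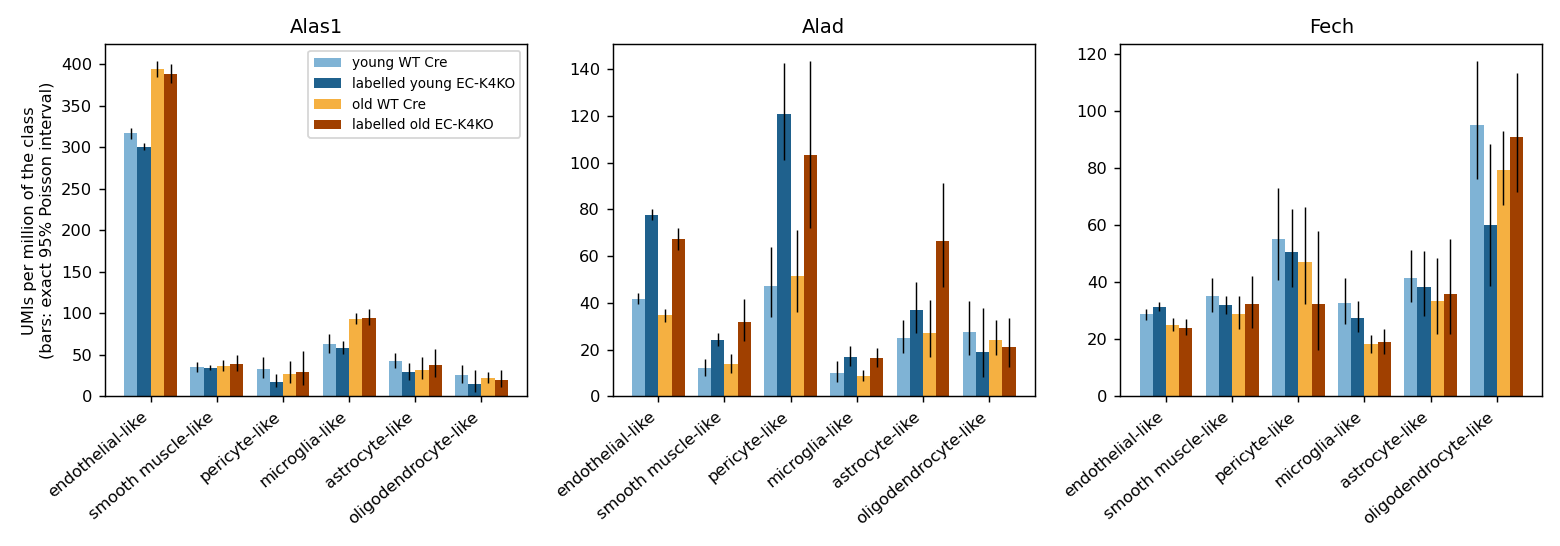
Level of Alas1, Alad and Fech in CPM of a class (y axis from 0, a different range in each panel) by cell class and library, with exact 95% Poisson intervals. Alas1 is 301 to 394 CPM in endothelial-like cells and under 100 in the other classes drawn, Alad is higher in the EC-K4KO-labelled libraries in every class drawn except oligodendrocyte-like, and Fech is highest in oligodendrocyte-like cells.

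Alad, for which the set was partly chosen, was higher in the EC-K4KO-labelled libraries at both ages. In endothelial-like cells it stood at 41.8 CPM (39.4 to 44.2) from 1176 UMIs in young WT Cre and 77.7 (75.4 to 80.1) from 4169 UMIs in the young EC-K4KO-labelled library. In the old libraries it stood at 34.7 CPM (31.9 to 37.6) from 587 UMIs in old WT Cre and 67.1 (62.6 to 72.0) from 804 UMIs in the old EC-K4KO-labelled library. The differences were 0.90 log2 (0.80 to 0.99) in the young pair and 0.95 log2 (0.80 to 1.11) in the old pair. Thinned to 1000 UMIs, 4.65%, 8.30%, 3.39% and 6.68% of endothelial-like cells under 1% haemoglobin had an Alad UMI, which is 29.4%, 53.6%, 19.8% and 28.4% before thinning. In the other named classes under 1% haemoglobin the thinned shares were 1.48%, 3.57%, 1.71% and 2.75%, and 13.4%, 20.8%, 11.7% and 13.8% before thinning. They too were higher in the young EC-K4KO-labelled library than in young WT Cre, while the intervals of the old libraries overlapped (1.29 to 2.23 and 2.09 to 3.55). The median depths of these cells are given above with the haemoglobin shares. Each label is 1 library, so library and label cannot be told apart.

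Alad was also higher outside endothelium. In smooth muscle-like cells it stood at 12.0, 24.3, 13.7 and 31.7 CPM, in pericyte-like cells at 47.3, 121, 51.5 and 103 CPM, in microglia-like cells at 9.96, 16.8, 8.71 and 16.3 CPM and in astrocyte-like cells at 24.8, 36.8, 27.3 and 66.3 CPM, always in the order young WT Cre, labelled young EC-K4KO, old WT Cre, labelled old EC-K4KO. Of these 8 comparisons over 4 classes and both ages, all 8 were higher in the EC-K4KO-labelled library, 7 had an interval above 0 and 7 passed 1.5-fold, with differences from 0.57 to 1.34 log2. The share of all tested genes that passed 1.5-fold upward in the young and the old pair was 1.29% and 3.85% in smooth muscle-like, 7.32% and 18.7% in pericyte-like, 2.84% and 1.88% in microglia-like and 11.3% and 12.2% in astrocyte-like cells. Oligodendrocyte-like cells stood at 27.7, 19.2, 24.4 and 21.2 CPM with overlapping intervals, from 8 to 46 UMIs. Among endothelial ranges, the arterial range held less Alad than the capillary range in each library, at 15.4, 39.0, 19.0 and 31.9 against 48.6, 87.9, 40.7 and 82.7 CPM, and the intervals of the old pair overlapped in the arterial range. Klf4 in the same 4 classes gave differences of both signs, for example 0.21 and -0.32 log2 in smooth muscle-like cells.

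The genes next to Alad on chromosome 4 were looked up after its values were seen. Within 500 kb of the start of Alad, 10 other genes had a mean of at least 2 CPM in endothelial-like cells in both pairs. Hdhd3, a haloacid dehalogenase-like hydrolase gene whose start lies at -16.5 kb, on the side of lower coordinates, stood at 3.05 CPM in young WT Cre, 5.13 in the young EC-K4KO-labelled library, 2.07 in old WT Cre and 4.59 in the old EC-K4KO-labelled library, which is 0.74 log2 (0.39 to 1.11) in the young pair and 1.14 log2 (0.51 to 1.81) in the old pair. Pole3, 5.15 kb away on the other side, differed by 0.13 log2 (0.01 to 0.24) and -0.01 log2 (-0.21 to 0.18). Zfp618, at 446 kb, differed by 0.45 log2 (0.09 to 0.84) and 0.50 log2 (-0.10 to 1.10) at 2.89 to 4.09 CPM. The remaining 7 genes lay within 0.19 log2 of 0 in both pairs. Klf4 itself lies 6.99 Mb from Alad on the same chromosome, and any link between the floxed locus and Alad was not tested.

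**Figure D5:**
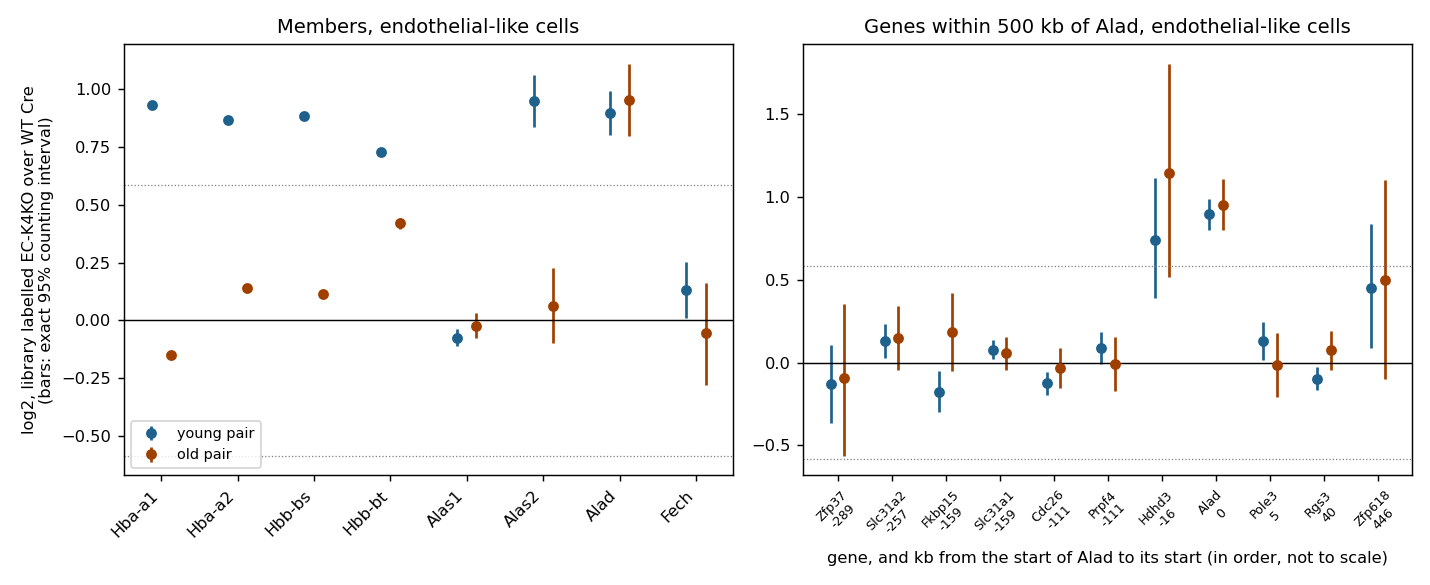
Log2 ratios of the EC-K4KO-labelled library over WT Cre in endothelial-like cells, for the members (left) and for the genes within 500 kb of Alad in order of position (right), in the young pair (blue) and the old pair (brown), with exact 95% counting intervals and dotted lines at 1.5-fold. The haemoglobin genes and Alas2 are near 0.7 to 1.0 in the young pair and between -0.15 and 0.42 in the old pair, while Alad and Hdhd3 lie above 1.5-fold in both.

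Across the members, 6 of 8 were at least 1.5-fold higher in the young EC-K4KO-labelled library than in young WT Cre in endothelial-like cells, and none was lower, where 1.16% of 8533 tested genes were higher and 1.24% lower. Hba-a1 stood at 6344 against 3329 CPM, a difference of 0.93 log2, Hba-a2 at 0.87, Hbb-bs at 0.88, Hbb-bt at 0.73 and Alas2 at 0.95 log2, and the haemoglobin-rich barcodes held most UMIs of these 5 genes. In the old pair only Alad of the 8 passed 1.5-fold, where 1.46% of 8168 genes were higher and 1.13% lower, and the haemoglobin genes differed by -0.15 (Hba-a1) to 0.42 log2 (Hbb-bt). From young to old, Hbb-bs was 0.73 log2 higher in WT Cre, with 3.95% of 8429 genes higher and 6.93% lower, and Hba-a1 was lower (-0.75 log2) in the EC-K4KO-labelled libraries, with 4.55% of 8315 genes higher and 5.41% lower. The rule drew on these libraries, so nothing is read from the counts of members. Without the rich cells the young pair kept its differences, at 0.99, 0.87, 0.85 and 0.57 log2 for Hba-a1, Hba-a2, Hbb-bs and Hbb-bt, the last below 1.5-fold, and Alas2 was below 10 CPM, a mean it reached only through the rich cells. In the other named classes under 1% haemoglobin these 4 haemoglobin genes were also higher in the young EC-K4KO-labelled library. They stood at 76.2, 86.4, 246 and 37.6 CPM in it, against 40.7, 44.7, 136 and 22.1 CPM in young WT Cre. In the old pair without the rich cells Hbb-bt was 0.75 log2 higher in endothelial-like cells (23.4 against 13.8 CPM). It stood at 15.8 against 9.22 CPM in the other classes. In endothelial-like cells without the rich ones, the old EC-K4KO-labelled library was lower than the young one by 1.5-fold in 3 genes, with -1.17 log2 for Hba-a1, -0.67 for Hba-a2 and -0.83 for Hbb-bs. With age in WT Cre all 4 haemoglobin genes turned from higher to lower values without them, Hba-a1 from 0.33 to -0.19 log2, Hba-a2 from 0.45 to -0.09, Hbb-bs from 0.73 to -0.16 and Hbb-bt from 0.32 to -0.66, the last past 1.5-fold. The interval of Hba-a2 then included 0 (-0.21 to 0.04).

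The other genes of heme and iron handling are set beside the share of all tested genes that were higher by at least 1.5-fold, 1.16% for the young pair and 1.46% for the old one. With age 3.95% were higher and 6.93% lower in WT Cre, and 4.55% and 5.41% in the EC-K4KO-labelled libraries. None of the tested genes among the other heme synthesis enzymes, Urod, Cpox and Ppox included, and none of the 6 tested of 7 mitochondrial transport genes passed 1.5-fold in any of the 4 comparisons, with medians of -0.19 and -0.02 log2 for the enzymes in the young and the old pair, where the median of all tested genes was -0.06 and -0.02. The enzyme medians with age were -0.44 log2 in WT Cre and -0.32 log2 in the EC-K4KO-labelled libraries. All tested genes had medians of -0.20 and -0.14 log2 there. Of 10 tested genes of heme export, import and degradation, 1 was higher in the young pair, Hmox1, which breaks down heme, at 17.9 CPM in the EC-K4KO-labelled library (0.70 log2, 0.51 to 0.89), and none in the old pair, where Hmox1 was at 20.5 against 14.4 CPM (0.51 log2, 0.24 to 0.77). Of 8 tested genes of iron uptake, storage and export, Steap3, an iron reductase, was higher in both pairs, by 0.69 log2 (0.53 to 0.85) and 0.98 log2 (0.65 to 1.33), and Fth1, the heavy chain of the iron store ferritin, was higher in the old pair, at 5786 against 3400 CPM (0.77 log2). With age in WT Cre, Bach1, a heme-sensing repressor, was higher by 1.03 log2, and Flvcr2 was lower (-0.72 log2), at 30.8 against 50.9 CPM. Slc40a1 (ferroportin, the iron exporter) was lower with age, at 210 against 330 CPM in WT Cre and 150 against 289 CPM in the EC-K4KO-labelled libraries, as was Steap3 (-1.02 and -0.72 log2). Fth1 was 0.78 log2 higher with age in the EC-K4KO-labelled libraries. Scaled by TMM, which moves each WT Cre age ratio by 0.16 log2, Flvcr2 (-0.56) and Slc40a1 (-0.49) no longer passed 1.5-fold in WT Cre, while Flvcr1 (0.74), a heme exporter, did. Bach1 then also passed in the young pair (0.60) and with age in the EC-K4KO-labelled libraries (0.61), and Tent5c in the young pair (0.65). Median-of-ratios scaling changed the same calls. Among the reticulocyte genes, in the age comparison of WT Cre Tent5c was higher (0.93 log2) and Car2 and Cat were lower (-0.62 and -0.63 log2, or -0.46 and -0.47 and so inside 1.5-fold by TMM), and Tent5c was below 10 CPM in endothelial-like cells without the rich ones. Of 9 other globins none was at 10 CPM or more in any comparison, and in endothelial-like cells under 1% haemoglobin their highest value was 2.56 CPM, of Hbb-y.

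The genes most alike to each member were ranked by Pearson r of log2(CPM + 1) over 33 points, each 1 of 13 classes in 1 library with at least 50 cells. For Alas1 they were St8sia6 (r = 0.92), Myct1 (0.87), Gm45266, Gm38197 and Pkn3 (0.85). For the haemoglobin sum they were Flt1 (r = 0.91), Egfl8, Sox7, Tbx1 and Cdh5 (0.90), of which Flt1 and Cdh5 are endothelial markers. Alas2 gave Gm18068 (r = 0.96), Gm37652, Dipk2b, Gm32401 and Gm38066 (0.94), Alad gave Ddb1 (r = 0.83), Pcca, Zfp958, Tshz1 and Zfp280d (0.82), and Fech gave Ddx1 (r = 0.92), Rxylt1, Ktn1, Tulp4 and Map4k5 (0.90). The points share libraries and depth, and the endothelial points share the rich barcodes.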

How the data were processed

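Single-cell RNA was measured in 4 libraries, 1 per group. The deposited values are raw UMI counts per gene and barcode, the output of Cell Ranger 6.0.2 (named in the headers), and the submitters' processing notes name mm10, GRCm38 and Seurat. The 8 genes, the gene lists and the comparisons were chosen with earlier results of these data known. The cell filter asked for 500 genes, 1000 UMIs and no more than 10% of UMIs from mitochondria and kept 21714 of 26422 barcodes. Kept barcodes were sorted into 18 classes by their marker UMIs, haemoglobin left out, by a scoring rule set after the data were seen. In the 4 libraries 40, 79, 61 and 59 fitted no class, and 214 kept barcodes lay near its purity limit. Barcodes with markers of 2 lineages (160, 323, 276 and 117) were left out as possible doublets, and no doublet caller was run. Counts were summed per library and class and given per 1000000 UMIs (CPM), with exact Poisson, Clopper-Pearson and conditional binomial intervals at 95%. With 1 library per group no test was run, edgeR served only for its TMM scaling factors, and a gene was called at 1.5-fold with a mean of at least 10 CPM. Named genes were the members, the list genes past that fold and the 5 genes most alike to each member. Genes around Alad and alpha-led barcodes were chosen after their values were seen. Shares of cells with a UMI were also computed after thinning to 1000 UMIs. Alternatives were other scalings, filters, class limits and weights and, added after seeing the data, leaving out barcodes of 1% or more haemoglobin. Scripts (Python 3.11.15, numpy 2.4.6, scipy 1.17.1, R 4.3.3, edgeR 4.0.16) were tested on simulated data. Ahsp and Tf were not analysed here. Some list genes are not reported here. Depth was 30655769 to 88812581 UMIs per library. Promoters are from RefSeq and positions from GENCODE M21, which held 55394 of 55487 gene IDs.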

Additional observations from a re-analysis of the deposited data

Results flagged for a closer look

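These results went in opposite directions in comparisons of the same kind in endothelial-like cells. With 1 library per group the difference between the comparisons was not tested. Hba-a1 was higher in the EC-K4KO-labelled library in the young pair (0.93 log2) and lower in the old pair (-0.15 log2). With age, Hba-a1 differed by 0.33 log2 in WT Cre and -0.75 log2 in the EC-K4KO-labelled libraries, and Hba-a2 by 0.45 and -0.28 log2. Hbb-bs differed with age by 0.73 log2 in WT Cre and -0.034 log2 in the EC-K4KO-labelled libraries, and Alas2 by 0.55 and -0.33 log2. The haemoglobin-rich cells moved with these values, at 3.88% and 8.98% of endothelial-like cells in the young libraries and 5.54% and 5.33% in the old ones. Without them the opposite directions with age were not seen. Hba-a1 was then -0.19 log2 in WT Cre and -1.17 in the EC-K4KO-labelled libraries, Hba-a2 -0.09 and -0.67, and Hbb-bs -0.16 and -0.83. Alas2 was then -1.72 (-7.69 to 0.68) and -0.95 (-3.05 to 0.38), from 36 UMIs or fewer in each library. Hba-a1 in the old pair was then 0.01 log2 (-0.16 to 0.18). Hbb-bs with age in the EC-K4KO-labelled libraries also turned to 0.05 log2 under TMM and 0.09 under median-of-ratios scaling.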

How the results depend on the processing

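No paired analysis was possible because the groups share only replicate number 1 and no test was run. Of single gene ratios under the alternatives, 125 kept their value within the counting interval, 82 moved outside it and 1, past 1.5-fold before, reversed. Counting every ratio whatever its size, 14 of 208 changed sign, 8 of them without barcodes of 1% or more haemoglobin. Alad stayed between 0.81 and 0.97 log2 for the young pair, and for the old pair between 0.88 and 1.02 log2. Hbb-bs with age in WT Cre turned to -0.16 log2 without barcodes of 1% or more haemoglobin, an alternative chosen after seeing the data. In the order young WT Cre, labelled young EC-K4KO, old WT Cre, labelled old EC-K4KO, the haemoglobin share of UMIs was 1.16%, 2.0%, 0.979% and 1.28% in kept barcodes and 0.0270%, 0.0495%, 0.0173% and 0.0240% without the rich barcodes. Barcodes with at least 2 erythroid markers numbered 17, 43, 10 and 24 (0.319%, 0.514%, 0.137% and 0.441% of barcodes), so the young EC-K4KO-labelled library held the highest share, where at 3 markers the old one did. The haemoglobin level of endothelial-like cells was 9550, 18944, 13320 and 13763 CPM with equal weight per cell, 11254, 20137, 17144 and 23588 without cells holding an erythroid marker UMI, 15616, 28639, 22828 and 24639 with up to 20% mitochondrial UMIs, 15398, 28477, 22445 and 25065 with at least 1000 genes, 14594, 27917, 21856 and 25137 with the stricter class limit, and 263, 479, 231 and 270 without rich cells. The alpha share was 43.3%, 43.7% and 38.7% in the first 3 libraries without cells holding an erythroid marker UMI, 38.1% in old WT Cre with the stricter class limit, and 41.5%, 43.5%, 43.0% and 41.6% without rich cells.

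Among members past 1.5-fold, the young pair had 1 enzyme instead of 2 in cells under 0.1% haemoglobin and without rich cells, and the age comparison of WT Cre had 1 instead of 0 under TMM, median-of-ratios, the stricter class limit and capillary-range cells. Haemoglobin genes numbered 1 instead of 0 in the old pair and 3 instead of 1 with age in the EC-K4KO-labelled libraries without rich cells, and 2 instead of 1 with age in WT Cre under TMM and median-of-ratios. Over all genes, higher and lower calls were 37 and 24 for the young pair, 38 and 21 for the old pair, 144 and 112 with age in WT Cre and 138 and 103 in the EC-K4KO-labelled libraries at a mean of 50 CPM or more, and 5236 and 4994, 3708 and 4312, 4766 and 6486, and 4826 and 4372 with no filter. With age in WT Cre 513 genes were higher under median-of-ratios, 216 lower under TMM and 193 lower under median-of-ratios, and in the EC-K4KO-labelled libraries 263 were lower under TMM and 216 under median-of-ratios. These scalings shifted the age ratios of WT Cre by 0.16 and 0.18 log2. Depth limits the small classes most, and the cause of each change was not tested.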
